A study of Homo sapiens with 10 samples.

Results

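Acetylation of histone H3 at lysine 27 (H3K27ac) was described over 10 genes of the epithelial-mesenchymal transition (EMT): the transcription factors ZEB1, ZEB2, SNAI1, SNAI2, TWIST1 and TWIST2, the epithelial marker CDH1, and the mesenchymal markers VIM, CDH2 and FN1. Every region of the annotated count table with one of these gene symbols was taken. This gave 66 regions of 67387 annotated regions, out of 169637 counted regions, each 502 bp long. CDH1 had 24 of them, SNAI1 11, FN1 8, CDH2 6, SNAI2 6, VIM 3, TWIST1 3, ZEB2 2, TWIST2 2 and ZEB1 1. Of the 66, 27 were annotated as promoter (within 3 kb of a transcription start site) and 39 were introns, exons, 3' ends or distal intergenic regions. All 66 passed the filter on low counts.

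EMT is a programme in which epithelial cells lose cell-to-cell adhesion and polarity and gain motility. The ZEB, SNAI and TWIST proteins are DNA-binding factors; ZEB1, ZEB2, SNAI1 and SNAI2 bind E-box sequences and repress CDH1, whose product E-cadherin holds epithelial cells together. Vimentin (VIM), N-cadherin (CDH2) and fibronectin (FN1) are the usual markers of the mesenchymal state. H3K27ac marks active promoters and enhancers, so it reports the activity of regulatory regions and not the amount of RNA or protein.

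The cells were H1975, an established human lung adenocarcinoma line with mutant EGFR, and ChIP-seq (immunoprecipitation of chromatin followed by sequencing) for H3K27ac was run on cells fixed with 1% formaldehyde. All cells came from this 1 line, and each group held 3 libraries described in the labels as biological replicates. DMSO cells were kept for 21 days without drug and then for 3 days in DMSO, the vehicle. Osimertinib DTPs, the drug-tolerant persister cells that survive the EGFR inhibitor osimertinib, received 500 nM osimertinib over 24 days. The combo cells (osimertinib DTP + AZD5153) received 500 nM osimertinib over 21 days and then 150 nM AZD5153 over 3 days. The labels do not say whether osimertinib was kept during those last days. A single pooled input library had no immunoprecipitation.

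The 9 H3K27ac libraries held between 6263443 and 10463351 reads in the counted regions, and the input 1870885. Osimertinib DTP replicate 2 and combo replicate 3 stood apart: 56.2% and 58.1% of their reads lay in annotated promoters, against 35.7% to 41.1% in the other 7 libraries. Combo replicate 3 was also the shallowest library, had 9139 regions with no read, and correlated with its 2 replicates at a Spearman rho of 0.443 and 0.365, whereas all other replicate pairs reached 0.805 to 0.893. These libraries therefore tend to read high at promoters and low elsewhere, and values without combo replicate 3 are given beside the results whose call they change. H1975 markers were present: all 9 genes of an epithelial lung adenocarcinoma list had promoter regions, with summed promoter levels of 1016 to 1606 CPM (reads scaled to the size of the library) over the 9 libraries. KRT7 and KRT8 carried most of this, and single genes went different ways. Group means in DMSO, osimertinib DTPs and combo cells were 181, 148 and 98.9 CPM for KRT19 and 10.5, 5.65 and 2.36 for SFTPB. For NKX2-1 they were 22.7, 48.8 and 56.7 CPM, and for KRT18 59.5, 103 and 90.6. CDH1 and NAPSA were also lower in both treated groups, and EPCAM higher. Of the fibroblast list 3 of 6 genes had a promoter region (COL1A1, PDGFRB and PDGFRA), while COL3A1, DCN and LUM had none. The summed CPM of those 3 was 38.1 to 70.9 in DMSO, 117 to 152 in osimertinib DTPs and 145 to 277 in combo cells. PDGFRB carried most of this, with group means of 21.0, 90.8 and 152 CPM, while PDGFRA gave 18.7, 20.8 and 24.7 CPM and COL1A1 10.2, 28.4 and 21.1 CPM. Their part in the results was not tested.

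One promoter window of VIM and one of ZEB1 are shown because both overlap counted regions. Of the 3 counted VIM promoter regions, 1 rose in combo cells against DMSO. Among the 7 promoter windows of ZEB1, the one shown holds the most E2-boxes, 2 of the 7 hold any, and the other window that overlaps the counted region, chr10:31319518-31319767, holds 0. Each is the stretch of 250 bases before a RefSeq transcription start on GRCh38.p14, read on the plus strand, 5' to 3': chr10:17227991-17228240 for VIM and chr10:31318966-31319215 for ZEB1. Capitals mark E2-boxes, the letters CAGGTG or CACCTG on either strand, which are the core sequence recognised by ZEB and SNAI proteins.
VIM: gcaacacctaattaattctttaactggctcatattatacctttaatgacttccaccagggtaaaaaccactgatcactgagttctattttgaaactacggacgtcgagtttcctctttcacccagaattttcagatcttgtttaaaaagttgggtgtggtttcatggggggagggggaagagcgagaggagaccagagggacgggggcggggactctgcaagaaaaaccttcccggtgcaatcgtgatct
ZEB1: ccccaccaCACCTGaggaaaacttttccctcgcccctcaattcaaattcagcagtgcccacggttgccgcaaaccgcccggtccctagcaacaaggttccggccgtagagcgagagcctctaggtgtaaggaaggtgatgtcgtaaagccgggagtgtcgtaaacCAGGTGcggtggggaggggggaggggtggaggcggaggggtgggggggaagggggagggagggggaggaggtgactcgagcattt
The VIM window held no E2-box and no AP-1 motif (TGACTCA or TGAGTCA), and its GC content was 46%. The ZEB1 window held 2 E2-boxes and no AP-1 motif, with a GC content of 62.4%. Among all 35116 promoter windows of the same length, 17.5% held an E2-box and 4.20% an AP-1 motif. Of the 10 genes, 6 were in the promoter table, with 13 windows. CDH1, SNAI1, SNAI2 and TWIST1 were not in it.

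Among the 66 regions, called falls lay mostly outside promoters, as they did over all annotated regions. At promoters and elsewhere, members had 1 and 4 falls in osimertinib DTPs against DMSO, and 1 and 11 in combo cells. All annotated regions had 932 and 3935, and 1603 and 5872. Member rises were 1 and 0, and 4 and 1, where all annotated regions had 1128 and 3577, and 1985 and 5230. Without osimertinib DTP replicate 2 and combo replicate 3, member rises were 1 and 3, and 9 and 4. Levels are CPM scaled by the trimmed mean of M values (TMM), and differences are log2 fold changes with their standard error from edgeR's quasi-likelihood test, called at a Benjamini-Hochberg adjusted p under 0.05 over all 157919 tested regions. In osimertinib DTPs against DMSO, 1 of the 66 regions was higher and 5 were lower, where 5.58% and 5.13% of all tested regions were higher and lower. The 66 are all annotated, and of the 67387 annotated regions 6.98% were higher and 7.22% lower. The median log2 fold change was 0.37 over the 27 promoter regions and -1.06 over the 39 others, against 0.32 and -0.06 over all annotated promoter and other regions. In combo cells against DMSO, 5 regions were higher and 12 lower. The shares were 9.05% and 9.01% of all tested regions, and 10.7% and 11.1% of the annotated regions. Here the medians were 0.45 for promoter regions and -1.15 for the others, against 0.38 and 0.03. The promoter regions of these genes were thus near the median of all promoters, and the other regions lay below the median of their class. CDH1 held 19 of these 39 and SNAI1 7, so the second median mostly reflects these genes. All SNAI2 and TWIST2 regions had positive log2 fold changes in both comparisons. For TWIST1 1 was positive and 2 negative, and for CDH2 2 and 4. Both comparisons share the DMSO libraries. In these bulk libraries a change in every cell and a change in the share of cells that carry the mark cannot be told apart.

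These counts rested on single libraries. Without combo replicate 3 the calls against DMSO rose to 6 higher and 18 lower in osimertinib DTPs, beside 14.2% and 12.7% of all regions tested, and to 10 higher and 21 lower in combo cells, beside 18.4% and 17.3%. Leaving out DMSO replicate 2 took the calls to 0 in osimertinib DTPs, where 0.407% and 0.294% of all regions were then called higher and lower, and to 2 in combo cells, beside 2.4% and 2.76%. Of the remaining libraries, leaving out any one of DMSO replicates 1 and 3 and the 3 osimertinib DTP libraries left 1 or 2 calls in osimertinib DTPs, and leaving out DMSO replicate 3 or combo replicate 1 left 5 or 6 in combo cells. Calls over all regions fell as well. In osimertinib DTPs they went from 8814 higher and 8107 lower to 1324 to 5634 higher and 1471 to 4616 lower. In combo cells they went from 14286 and 14232 to 4172 and 5843 without DMSO replicate 3, and to 8470 and 8216 without combo replicate 1. Between 162921 and 164346 regions were tested in these fits. With both promoter-rich libraries left out, 4 regions were higher and 18 lower in osimertinib DTPs, beside 14.9% and 12% of all regions, and 13 higher and 22 lower in combo cells, beside 22.8% and 19.8%. DESeq2 called 2 regions higher and 13 lower in osimertinib DTPs, where its shares of all regions were 7.92% and 9.76%, and 11 higher and 16 lower in combo cells, where they were 12.9% and 12%. In the fits without promoter-rich libraries the shares of all regions rose along with the members' counts.

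**Figure D1:**
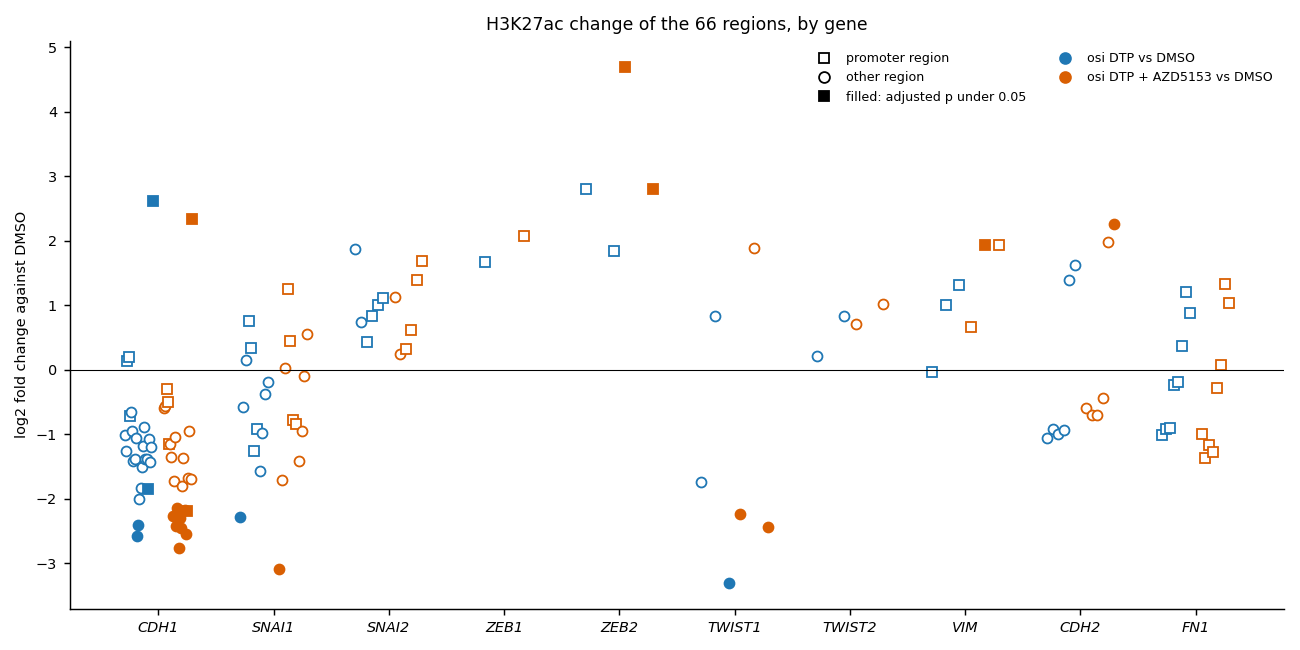
Log2 fold change against DMSO (vertical axis) of each of the 66 regions, grouped by gene along the horizontal axis, for osimertinib DTPs (blue) and combo cells (orange). Squares are promoter regions, circles are other regions, and filled symbols passed an adjusted p of 0.05. The filled symbols below 0 belong to CDH1, SNAI1 and TWIST1, and those above 0 to CDH1, ZEB2, VIM and CDH2.

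CDH1, the gene of E-cadherin, lost H3K27ac within its body. Of its 24 regions on chromosome 16, 3 fell and 1 rose in osimertinib DTPs, and 9 fell and 1 rose in combo cells. The regions that fell lay inside the gene, 8 of the 9 in an intron, and the log2 fold changes of the 9 in combo cells ran from -2.15 to -2.75. The introns are annotated as intron 2 of 13 of the long CDH1 transcript. Without combo replicate 3 there were 13 falls and 1 rise in osimertinib DTPs, and 14 falls and 1 rise in combo cells, beside the shares of all regions given above for that fit.

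The intronic region with the highest level over all libraries was chr16:68744393-68744894, 7041 bp after the start site. Its DMSO levels were 20.9, 47.9 and 38.8 CPM, its osimertinib DTP levels 8.89, 11.3 and 21.1 CPM, and its combo levels 6.11, 23.6 and 2.51 CPM. DMSO replicate 1 lay just below the highest osimertinib DTP library, so the groups overlapped by 1 library. The log2 fold changes of -1.38 ± 0.69 (SE, adjusted p = 0.22) and -1.73 ± 0.70 (adjusted p = 0.095) did not pass the test, and the first passed without combo replicate 3 (adjusted p = 0.040).

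Smaller regions beside it passed. The region chr16:68745552-68746053 held 37, 46 and 51 reads in DMSO, 6, 1 and 14 in osimertinib DTPs and 5, 6 and 7 in combo cells. Every treated library lay below every DMSO library. Its log2 fold change was -2.58 ± 0.73 (adjusted p = 0.031) in osimertinib DTPs, the largest fall of CDH1 in that comparison, and -2.42 ± 0.73 (adjusted p = 0.030) in combo cells. The region chr16:68752537-68753038 had the largest fall of CDH1 in combo cells, with 64, 51 and 88 reads in DMSO, 27, 5 and 16 in osimertinib DTPs and 4, 8 and 9 in combo cells. Its log2 fold change was -2.75 ± 0.68 (adjusted p = 0.012) in combo cells and -2.0 ± 0.64 (adjusted p = 0.054, and 0.0051 without combo replicate 3) in osimertinib DTPs.

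That region opens a run of 7 neighbouring intronic regions between 68752537 and 68757794, of which 5 fell in combo cells. Summed over the run, the levels were 64.5, 126 and 100.5 CPM in DMSO, 34.0, 39.0 and 41.4 in osimertinib DTPs, and 14.8, 39.0 and 15.3 in combo cells. All 6 treated libraries lay below the lowest DMSO library. Within the run, chr16:68757293-68757794 was the CDH1 region whose call in combo cells held in all 9 fits that left out 1 library. It held 61, 97 and 76 reads in DMSO and 14, 13 and 5 in combo cells, with a log2 fold change of -2.55 ± 0.57 (adjusted p = 0.0066, at most 0.048 with 1 library left out). This region was picked after its values were seen.

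No CDH1 call in osimertinib DTPs held when any one of the 3 DMSO libraries or osimertinib DTP replicate 1 or 2 was left out, and 1 held without osimertinib DTP replicate 3. In combo cells the number of regions that fell was 7 without DMSO replicate 1, 2 without DMSO replicate 2, 3 without DMSO replicate 3 and 2 without combo replicate 1. Falls called over all regions in combo cells dropped too, from 14232 to 9615, 4526, 5843 and 8216 in these fits.

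The start site of CDH1 showed no called change. At chr16:68737260-68737761, over the annotated start site, the levels were 11.1, 20.6 and 17.4 CPM in DMSO, 6.12, 36.5 and 11.3 in osimertinib DTPs, and 3.31, 10.9 and 26.1 in combo cells. The highest library of each treated group was the one rich in promoter reads, and the other treated libraries lay near or below DMSO. In osimertinib DTPs the log2 fold change was 0.13 ± 0.72 (adjusted p = 0.94) and in combo cells -0.29 ± 0.72 (adjusted p = 0.83), and the sign of the first changed with the scaling. Without combo replicate 3 the second was -1.21 (adjusted p = 0.14), and the adjoining promoter regions at 68737770 and 68738396 fell in combo cells, by 1.83 and 1.54 on the log2 scale (adjusted p = 0.019 and 0.018).

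Among the regions annotated as CDH1 promoters, 2 passed the test, and both belong to shorter transcripts inside the gene. The region chr16:68761012-68761513 (-1781 bp from the start of one of them) fell from 9.43, 18.5 and 12.8 CPM in DMSO to 4.68, 3.34 and 3.22 in osimertinib DTPs and 3.11, 3.26 and 2.51 in combo cells. Its log2 fold changes were -1.85 ± 0.53 (adjusted p = 0.034) and -2.18 ± 0.54 (adjusted p = 0.011). The region chr16:68823580-68824081 went the other way and is the only CDH1 region that rose. It held 14, 5 and 7 reads in DMSO, 54, 38 and 51 in osimertinib DTPs, and 44, 64 and 4 in combo cells. Combo replicate 3 thus read at the DMSO level while the other treated libraries lay above it. Its log2 fold changes were 2.62 ± 0.71 (adjusted p = 0.027) and 2.34 ± 0.71 (adjusted p = 0.030). The call in combo cells was lost without any one of the 3 DMSO libraries or combo replicates 1 and 2.

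Some regions under the CDH1 symbol lie in or over another gene, and position does not show which gene they act on. The pair at 68732071 and 68732920, upstream of the start site, lies inside the neighbouring gene CDH3, and the region classed as exon overlaps the RNA pseudogene RNA5SP429. None of these passed the test over all libraries (the one at 68732920 gave an adjusted p of 0.044 in osimertinib DTPs without combo replicate 3), with log2 fold changes of -0.95 to -1.25 in osimertinib DTPs and -0.55 to -1.35 in combo cells.

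**Figure D2:**
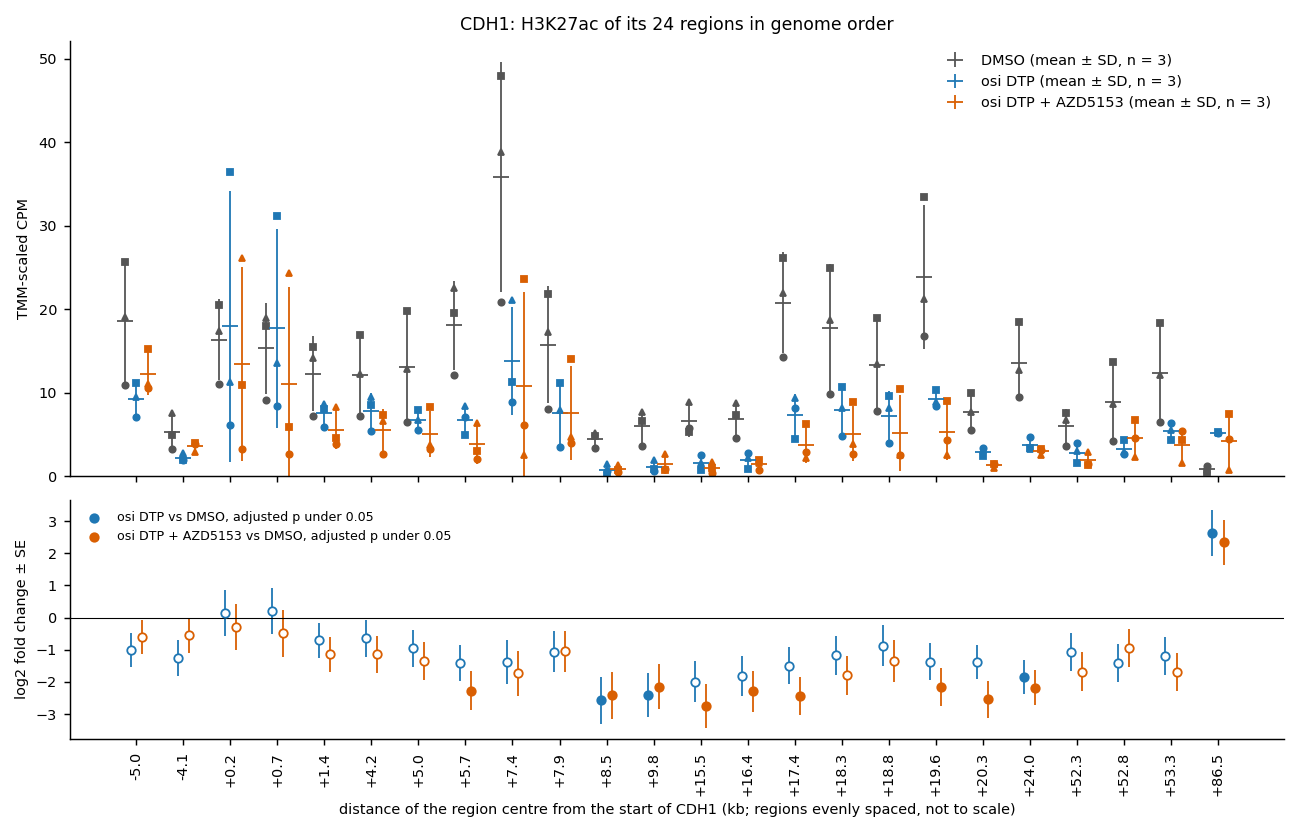
H3K27ac of the 24 CDH1 regions in genome order, spaced evenly, with the distance of each centre from the start of CDH1 in kb on the horizontal axis. The upper panel gives TMM-scaled CPM of each library (circles, squares and triangles for replicates 1, 2 and 3) with the mean ± SD of each group (n = 3), and the lower panel the log2 fold change ± SE against DMSO, filled where the adjusted p was under 0.05. The filled falls lie in the introns and in the internal promoter at 24.0 kb, and the single filled rise is the region at 86.5 kb.

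Summed over the 19 CDH1 regions that are not promoters, the levels were 234, 382 and 415 CPM in DMSO, 135, 90.7 and 204 in osimertinib DTPs and 80.6, 159 and 64.1 in combo cells. The groups did not overlap with DMSO. The log2 fold change of the sum was -1.76 ± 0.44 (adjusted p = 0.023) in combo cells and -1.27 ± 0.43 (adjusted p = 0.096, and 0.036 without combo replicate 3) in osimertinib DTPs. The sum of the 5 promoter regions gave 57.5, 83.6 and 98.0 CPM in DMSO, 46.5, 71.6 and 69.9 in osimertinib DTPs and 23.4, 39.9 and 62.3 in combo cells. Its log2 fold changes of -0.35 ± 0.38 (adjusted p = 0.64) and -0.93 ± 0.38 (adjusted p = 0.13) were not called, although without combo replicate 3 the second was -1.30 (adjusted p = 0.014). Whether promoter and other regions of CDH1 changed by unequal amounts was not tested.

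SNAI1, the gene of the repressor Snail, lost H3K27ac in a distal region, and its start site showed no called change. The promoter region at chr20:49982983-49983484 read 19.5, 20.3 and 16.8 CPM in DMSO, 16, 40.4 and 15.6 in osimertinib DTPs, and 15.6, 16.4 and 45.8 in combo cells. Only the promoter-rich library of each treated group lay above DMSO. These gave log2 fold changes of 0.34 ± 0.57 (adjusted p = 0.78) and 0.45 ± 0.57 (adjusted p = 0.64), and each turned negative without its promoter-rich library, to -0.20 and -0.24.

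The distal region chr20:49965405-49965906 (-17074 bp from the SNAI1 start site) fell. It held 56, 112 and 74 reads in DMSO, 24, 3 and 21 in osimertinib DTPs, and 6, 15 and 2 in combo cells, with no overlap between DMSO and either treated group. Its log2 fold change was -2.28 ± 0.69 (adjusted p = 0.042) in osimertinib DTPs and -3.08 ± 0.73 (adjusted p = 0.0092) in combo cells. With the replicate number as a block the first lost its call (adjusted p = 0.082), and it was also lost without any one of the 3 DMSO and 3 osimertinib DTP libraries; the call in combo cells was lost only without DMSO replicate 2 (adjusted p = 0.060).

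The SNAI1 intron region, chr20:49986796-49987297, read 13.5, 17.9 and 14.9 CPM in DMSO, 6.50, 4.59 and 4.43 in osimertinib DTPs and 4.81, 4.30 and 8.31 in combo cells. No treated library reached the DMSO range. Its log2 fold changes of -1.57 ± 0.53 (adjusted p = 0.064) and -1.42 ± 0.53 (adjusted p = 0.071) missed the threshold, and both passed without combo replicate 3 (-1.57 and -1.76, adjusted p = 0.0058 and 0.0062). The sum of the 7 SNAI1 regions outside promoters was 88.6, 81.7 and 87.2 CPM in DMSO, 49.2, 36.4 and 51.4 in osimertinib DTPs and 34.2, 34.8 and 56.7 in combo cells. It fell in combo cells by 1.04 ± 0.28 on the log2 scale (adjusted p = 0.029) and gave -0.91 ± 0.28 (adjusted p = 0.064, and 0.0088 without combo replicate 3) in osimertinib DTPs. The promoter sum of 4 regions gave -0.33 ± 0.39 and -0.21 ± 0.39 (adjusted p = 0.67 and 0.76), but without combo replicate 3 the second was -0.79 and passed (adjusted p = 0.038). Of the 11 SNAI1 regions, 3 then fell in osimertinib DTPs and 5 in combo cells, among them 2 promoter regions in combo cells.

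SNAI2, the gene of the repressor Slug, had a higher promoter sum in combo cells. No single region of the 6 was called, and the sum of its 4 promoter regions rose. That sum was 64.2, 50.7 and 35.4 CPM in DMSO, 75.0, 85.4 and 103 in osimertinib DTPs, and 107, 112 and 94.3 in combo cells, so that every treated library lay above every DMSO library. The log2 fold change was 1.06 ± 0.27 (adjusted p = 0.027) in combo cells and 0.81 ± 0.27 (adjusted p = 0.092) in osimertinib DTPs. Without combo replicate 3 both passed (adjusted p = 0.010 and 0.042), and 3 single regions rose in combo cells and 1 in osimertinib DTPs. The distal region at 48873310 was called in both (1.87 and 1.58 on the log2 scale in osimertinib DTPs and combo cells, adjusted p = 0.0089 and 0.031), and the promoter regions at 48920972 and 48921475 in combo cells (both 1.37, adjusted p = 0.025 and 0.044).

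The SNAI2 region with the highest level, chr8:48921475-48921976 at an annotated start site, read 13.4, 18.3 and 8.15 CPM in DMSO, 16.6, 54.4 and 15.1 in osimertinib DTPs and 32.1, 37.1 and 59.9 in combo cells. This region lies just outside the RefSeq bounds of SNAI2 and overlaps LOC107986942. All combo libraries lay above DMSO, but 2 osimertinib DTP libraries lay within its range. Against DMSO it gave 1.11 ± 0.59 (adjusted p = 0.25) and 1.69 ± 0.60 (adjusted p = 0.057). The distal region at chr8:48898951-48899452 gave 2.54, 3.51 and 3.22 CPM in DMSO, 4.68, 4.31 and 6.44 in osimertinib DTPs and 4.11, 5.00 and 1.74 in combo cells, which is 0.74 ± 0.55 and 0.24 ± 0.56 on the log2 scale (adjusted p = 0.45 and 0.81). The sum of both distal regions gave 1.15 ± 0.59 and 0.40 ± 0.58 (adjusted p = 0.26 and 0.69).

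ZEB2 had the largest rise of all 66 regions in combo cells. ZEB2 encodes a zinc finger repressor of epithelial genes, and both of its regions are promoters on chromosome 2. At chr2:144516474-144516975 the counts were 9, 0 and 1 reads in DMSO, 17, 33 and 8 in osimertinib DTPs and 44, 14 and 104 in combo cells. Almost no reads were found in 2 of the 3 DMSO libraries, and every combo library lay above all of DMSO. The log2 fold change in combo cells was 4.70 ± 1.09 (adjusted p = 0.0083), and 3.19 (adjusted p = 0.0068) without combo replicate 3. The call was lost only without DMSO replicate 2 (adjusted p = 0.052). In osimertinib DTPs the value was 2.81 ± 1.07 (adjusted p = 0.099, and 0.015 without combo replicate 3).

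The second ZEB2 region, chr2:144517063-144517564, is the one with the higher level. It read 3.08, 0.310 and 0.704 CPM in DMSO, 5.45, 7.51 and 2.01 in osimertinib DTPs and 7.21, 5.00 and 17.2 in combo cells. It rose in combo cells by 2.81 ± 0.79 on the log2 scale (adjusted p = 0.022), without overlap with DMSO, a call lost without DMSO replicate 2 or 3 (adjusted p at most 0.11). In osimertinib DTPs it gave 1.84 ± 0.77 (adjusted p = 0.14, and 0.029 without combo replicate 3). The sum of both regions gave 3.03 ± 0.92 (adjusted p = 0.050, just over the threshold) in combo cells and 1.79 ± 0.90 (adjusted p = 0.26) in osimertinib DTPs.

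ZEB1, the paralogue of ZEB2, had a single region, chr10:31319154-31319655, which overlaps the ZEB1 promoter window printed above. It held 115, 38 and 15 reads in DMSO, 111, 263 and 39 in osimertinib DTPs and 130, 73 and 239 in combo cells. In CPM this was 10.4, 3.92 and 1.51 in DMSO, 10.6, 36.6 and 3.93 in osimertinib DTPs and 13, 8.49 and 46.2 in combo cells, so the spread within each group was wide and the groups overlapped. Against DMSO the region gave 1.68 ± 0.84 (adjusted p = 0.22) and 2.08 ± 0.85 (adjusted p = 0.099), and the second was 1.01 (adjusted p = 0.26) without combo replicate 3. As a gene sum it gave 1.26 ± 0.83 and 1.71 ± 0.84 (adjusted p = 0.40 and 0.20).

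The 3 TWIST1 regions on chromosome 7 do not lie at the gene itself. TWIST1 encodes a basic helix-loop-helix factor, but the regions were assigned to it through a long transcript of that symbol and all fall outside the bounds of TWIST1 in RefSeq. The region chr7:19100194-19100695 held 42, 95 and 69 reads in DMSO, 7, 4 and 8 in osimertinib DTPs, and 6, 16 and 7 in combo cells. It fell by 3.30 ± 0.66 on the log2 scale in osimertinib DTPs (adjusted p = 0.0066), the largest fall of the 66 regions in that comparison. That call held in 8 of the 9 fits with 1 library left out and was lost without DMSO replicate 2 (adjusted p = 0.065). In combo cells it fell by 2.43 ± 0.63 (adjusted p = 0.014). Both TWIST1 falls in combo cells were lost without DMSO replicate 2 or 3, and 1 of them without combo replicate 1 or 2.

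The TWIST1 region classed as 3' end, chr7:19020989-19021490, held 49, 80 and 46 reads in DMSO, 14, 11 and 23 in osimertinib DTPs and 19, 9 and 3 in combo cells. It fell in combo cells by 2.24 ± 0.62 (adjusted p = 0.020) and gave -1.73 ± 0.60 (adjusted p = 0.071, and 0.0096 without combo replicate 3) in osimertinib DTPs. The third, chr7:19079194-19079695, had the highest level and pointed upward, with 2.63, 6.71 and 4.83 CPM in DMSO, 6.69, 8.91 and 9.67 in osimertinib DTPs and 23.5, 27.2 and 1.55 in combo cells. Of the combo libraries, replicates 1 and 2 lay far above DMSO and replicate 3 below it. It gave 0.83 ± 0.73 (adjusted p = 0.53) and 1.89 ± 0.74 (adjusted p = 0.086), and the second was 2.42 (adjusted p = 0.00045) without combo replicate 3. The sum of all 3 gave -0.67 ± 0.70 and 0.12 ± 0.69 (adjusted p = 0.62 and 0.93).

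TWIST2, the second TWIST factor, had 2 intron regions and no call. The one with the higher level, chr2:238864436-238864937, held 504 reads in osimertinib DTP replicate 2, the highest count of the 66 regions. Its levels were 19.7, 21.9 and 17.4 CPM in DMSO, 20.7, 70.1 and 14.2 in osimertinib DTPs and 25.0, 20.7 and 74.4 in combo cells. Outside the 2 promoter-rich libraries all values lay between 14.2 and 25.0 CPM. It gave 0.83 ± 0.64 (adjusted p = 0.46) and 1.02 ± 0.64 (adjusted p = 0.29) on the log2 scale, and the sum of both regions gave 0.38 ± 0.37 and 0.65 ± 0.37 (adjusted p = 0.59 and 0.26).

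VIM, the gene of the intermediate filament vimentin, was marked at its promoter, where its 3 regions lie side by side on chromosome 10. The middle one, chr10:17228128-17228629, rose in combo cells. It read 10.2, 5.78 and 2.82 CPM in DMSO, 11.9, 20.7 and 5.64 in osimertinib DTPs and 24.0, 17.3 and 30.7 in combo cells. Every combo library lay above every DMSO library, while osimertinib DTPs overlapped both. The log2 fold change was 1.93 ± 0.63 (adjusted p = 0.041) in combo cells and 1.01 ± 0.61 (adjusted p = 0.33) in osimertinib DTPs. The call was lost without DMSO replicate 2, DMSO replicate 3, osimertinib DTP replicate 1 or combo replicate 1, with adjusted p up to 0.21, and held without combo replicate 3 (1.71, adjusted p = 0.018).

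The VIM region with the highest level, chr10:17228635-17229136, read 19.2, 12.3 and 7.04 CPM in DMSO, 22.2, 63.6 and 11.1 in osimertinib DTPs and 35.0, 29.8 and 82.9 in combo cells. It gave 1.32 ± 0.65 (adjusted p = 0.21) and 1.93 ± 0.66 (adjusted p = 0.052). The sum of the 3 regions was 67.3, 29.6 and 19.7 CPM in DMSO, 69.4, 77.3 and 40.2 in osimertinib DTPs and 107, 77.6 and 118 in combo cells. Each combo library lay above all DMSO libraries and, by only 77.6 against 77.3 CPM, above all osimertinib DTP libraries. With the scaling used for single regions the same sum was 62.5 CPM in combo replicate 2 and 91.2 in osimertinib DTP replicate 2, so these 2 groups overlapped. The sum gave 0.68 ± 0.45 (adjusted p = 0.41) in osimertinib DTPs and 1.38 ± 0.46 (adjusted p = 0.066) in combo cells, neither of which passed the test.

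**Figure D3:**
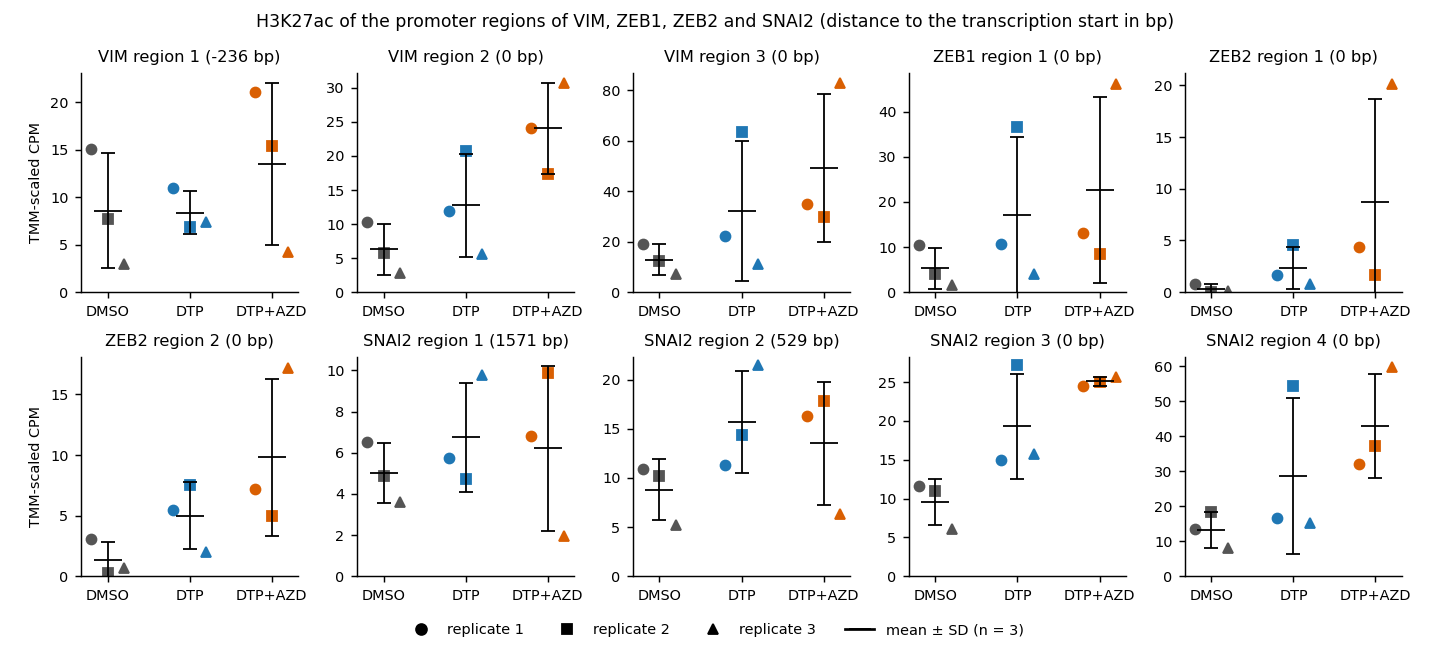
TMM-scaled CPM (vertical axis) in each library for the promoter regions of VIM, ZEB1, ZEB2 and SNAI2, with the distance from the start site in the panel titles and the group on the horizontal axis. Circles, squares and triangles are replicates 1, 2 and 3, bars are the mean ± SD (n = 3), and DTP+AZD marks the combo cells. In VIM region 2 and in both ZEB2 regions all combo libraries lie above all DMSO libraries, and these 3 regions passed the test in combo cells.

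CDH2, the gene of N-cadherin, had no promoter region among its 6, and 1 of them passed the test. The 4 intron regions, with 28114793 to 28115294 on chromosome 18 the highest, gave log2 fold changes of -0.92 to -1.06 in osimertinib DTPs and -0.44 to -0.70 in combo cells, none called. Without combo replicate 3 the values in combo cells were -0.48 to 0.06. That of the highest region turned from negative to positive, while the lowest of the 4 values stayed within the earlier range. With both promoter-rich libraries left out, 2 CDH2 regions fell in osimertinib DTPs and 2 rose. That highest region read 14.1, 19.2 and 11.2 CPM in DMSO, 7.46, 9.74 and 6.14 in osimertinib DTPs and 14.1, 16.9 and 1.55 in combo cells, so osimertinib DTPs lay below DMSO in every library. The distal region chr18:28204432-28204933 (-27302 bp from the start site) rose in combo cells. It held 60, 45 and 21 reads in DMSO, 111, 76 and 163 in osimertinib DTPs, and 255, 263 and 13 in combo cells.

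Combo replicate 3 again read low at that CDH2 region while combo replicates 1 and 2 lay above all other libraries. The log2 fold change was 2.27 ± 0.73 (adjusted p = 0.038) in combo cells and 1.62 ± 0.71 (adjusted p = 0.16, and 0.0091 without combo replicate 3) in osimertinib DTPs. Leaving out any library other than combo replicate 3 lost the call, with adjusted p up to 0.18, and without combo replicate 3 it was 2.77 (adjusted p = 0.00016). Its neighbour, chr18:28203881-28204382, gave 1.98 ± 0.68 (adjusted p = 0.052) in combo cells, and 2.47 (adjusted p = 0.00033) without combo replicate 3. The sum over all 6 CDH2 regions gave -0.12 ± 0.71 and 0.32 ± 0.71 (adjusted p = 0.94 and 0.80).

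FN1, the gene of fibronectin, had 8 regions on chromosome 2, all annotated as promoter, and none was called. The highest, chr2:215435409-215435910, read 12.9, 15.5 and 12 CPM in DMSO, 14.2, 58.9 and 20.4 in osimertinib DTPs and 14.9, 28.2 and 59.1 in combo cells. The groups overlapped in both comparisons, and the promoter-rich library was the highest of each treated group. Its log2 fold changes were 1.21 ± 0.62 (adjusted p = 0.23) and 1.34 ± 0.62 (adjusted p = 0.15). The 3 regions at an internal start site, from 215409473 to 215411588, gave -0.90 to -1.0 in osimertinib DTPs and -0.99 to -1.37 in combo cells. The sum of all 8 was 101, 127 and 110 CPM in DMSO, 88.7, 104 and 167 in osimertinib DTPs and 80.8, 141 and 96.7 in combo cells, with log2 fold changes of 0.09 ± 0.31 and -0.08 ± 0.31 (adjusted p = 0.90 and 0.89).

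As a whole, 13 gene sums could be formed, promoter and other regions apart. In osimertinib DTPs 0 of them were called by edgeR and 3 had an unadjusted p under 0.05, where 4.79% of all 21039 gene sums were higher and 5.7% lower. DESeq2 called 3, beside 8.5% of all sums higher and 10.6% lower. In combo cells against DMSO, 1 was higher (SNAI2 promoter) and 2 were lower (CDH1 and SNAI1 outside promoters), where 7.76% and 9.74% of all sums were called. The 3 calls became 0 without DMSO replicate 2, without DMSO replicate 3 or without combo replicate 1, 1 without osimertinib DTP replicate 1, and 5 without combo replicate 3, where 16% of all sums were higher and 15.3% lower. With all libraries 1632 of the 21039 sums were higher and 2049 lower. These became 399 and 872 without DMSO replicate 2, and 486 and 915 without DMSO replicate 3. They were 970 and 1341 without combo replicate 1, and 1242 and 1608 without osimertinib DTP replicate 1.

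**Figure D4:**
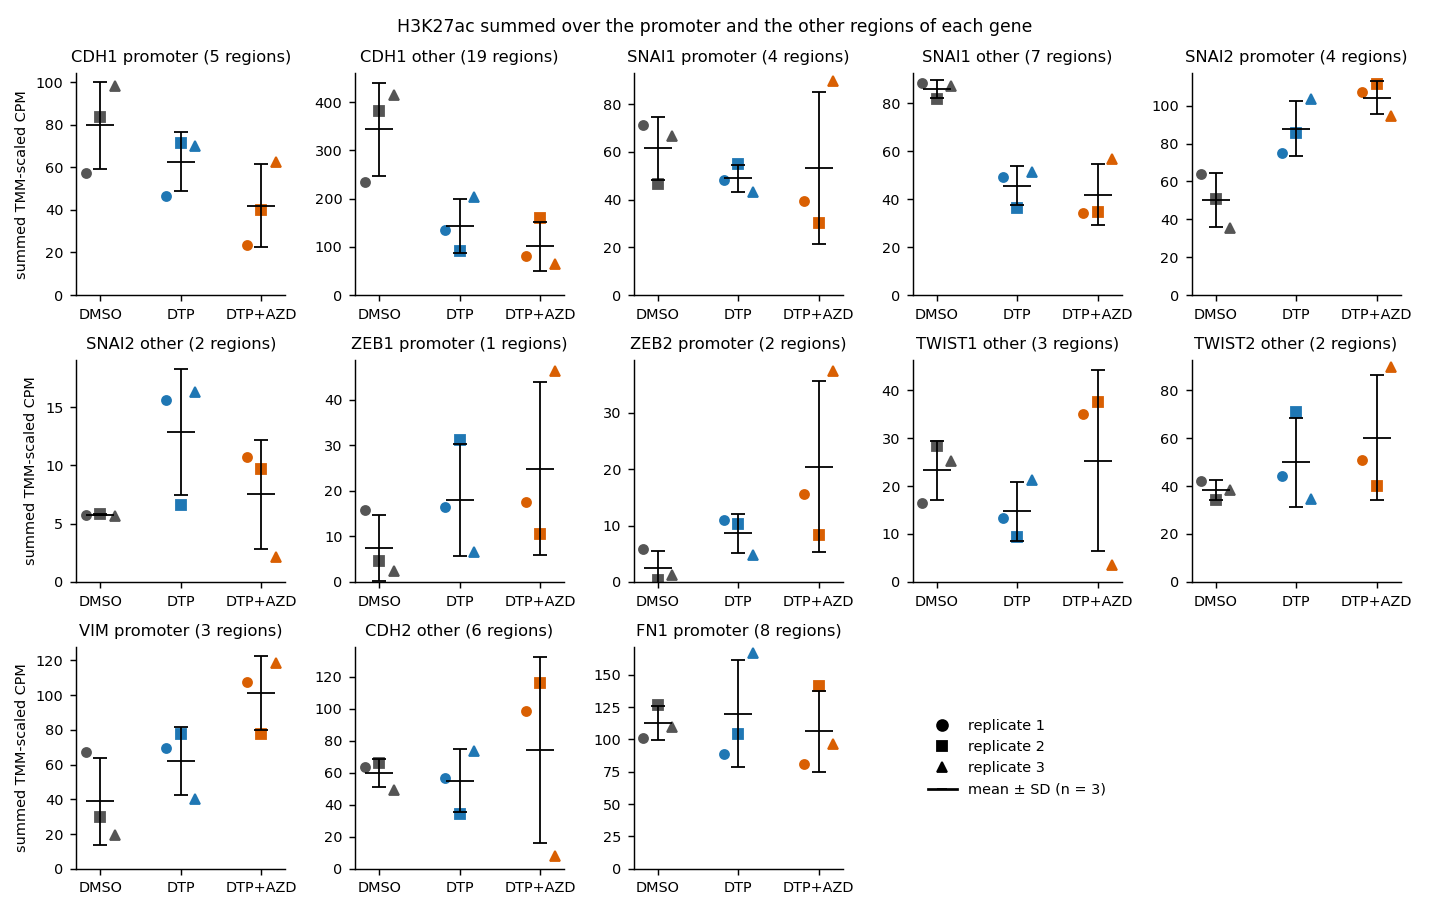
Summed TMM-scaled CPM (vertical axis) of the promoter regions and of the other regions of each gene in each library, by group on the horizontal axis. Circles, squares and triangles are replicates 1, 2 and 3, bars are the mean ± SD (n = 3), and DTP+AZD marks the combo cells. The called sums are CDH1 other and SNAI1 other, lower in combo cells than in DMSO, and SNAI2 promoter, higher in combo cells.

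Combo cells and osimertinib DTPs differed in AZD5153 and in the days of stated osimertinib exposure (21 against 24), and effects of the AZD5153 exposure and of a possible withdrawal of osimertinib cannot be told apart. Their direct comparison gave 0 calls among the 66 regions by edgeR and 0 by DESeq2 (0.0154% and 0.0535% of all regions were higher and lower by DESeq2), and 0 had an unadjusted p under 0.05. Across all tested regions 0% were called higher and 0% lower, and for gene sums the shares were 0% and 0%, so the members cannot be read against a background here. Without combo replicate 3, 0 members were called beside 0.0637% higher and 0.0587% lower of all regions, and with both promoter-rich libraries left out 1 was, beside 1.13% and 0.982%. The members' log2 fold changes ran from -1.16 to 1.89 with a median of 0.02. For the CDH1 sum outside promoters the difference was -0.50 ± 0.43, for the VIM sum 0.70 ± 0.45, for the ZEB2 sum 1.23 ± 0.85 and for the SNAI2 promoter sum 0.25 ± 0.27, each with an adjusted p of 1.0. Of these, the VIM sum was the one whose groups did not overlap, by 77.6 against 77.3 CPM. With the scaling used for single regions the VIM groups did overlap. Effects of this size could not be told from 0 with these errors, which does not show that both treatments acted alike.

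The peak lists, called by the authors in each library, gave a second view of the same reads. Of the 66 regions 60, 60 and 54 lay under a peak in the DMSO libraries, 52, 54 and 52 in osimertinib DTPs, and 48, 53 and 31 in combo cells, the last in combo replicate 3. The lists held 54188 to 70227 peaks per library. In all, 7 regions lay under a peak in all 3 DMSO libraries and in none of the 6 treated ones, which is 10.6% of the members beside 5.86% of all annotated regions. Peaks are called from the reads that gave the counts, so these are no independent measure. They were 4 CDH1 intron regions (at 68745552, 68746869, 68752537 and 68753408), the distal SNAI1 region at 49965405 and the TWIST1 regions at 19020989 and 19100194. At the last of these the peaks had 3.64, 8.72 and 4.19-fold enrichment in DMSO.

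No peak in any DMSO library but at least 1 in each treated group was found for 4 regions, 6.06% of the members beside 10.2% of all annotated regions. The ZEB2 region at 144516474 had peaks in 1 osimertinib DTP library and in all 3 combo libraries, with 9.62, 4.09 and 35.4-fold enrichment in the latter. The rising CDH1 region at 68823580 and the SNAI2 region at 48873310 had peaks in all 3 osimertinib DTP and 2 combo libraries, and the SNAI1 promoter region at 49982396 in 1 and 3. A missing peak says only that no region passed the authors' threshold there.

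Other genes of the transition were compared through a list of 29 epithelial and a list of 34 mesenchymal genes. Of the epithelial genes 24 had regions, 221 in all, and of the mesenchymal genes 29, with 311. In osimertinib DTPs 12 epithelial regions were higher and 21 lower, whereas 36 mesenchymal regions were higher and 20 lower. In combo cells against DMSO the counts were 12 higher and 31 lower for epithelial, and 48 higher and 28 lower for mesenchymal genes. The list regions are all annotated, and of the 67387 annotated regions 6.98% were higher and 7.22% lower in osimertinib DTPs, and 10.7% and 11.1% in combo cells. The epithelial regions lay above these shares in falls and below them in rises, and the mesenchymal regions above them in rises and below them in falls, differences that were not tested. They rested largely on a few genes with many regions. In osimertinib DTPs and combo cells, GRHL2 held 8 and 10 of the epithelial falls, and CDH3, the neighbour of CDH1, 5 and 10. Of the mesenchymal rises FSTL1 held 8 and 8, and PDGFRB 6 and 11. TGFBI held 7 of the mesenchymal falls in each comparison. Median log2 fold changes were 0.04 and 0.17 in osimertinib DTPs, and -0.27 and 0.42 in combo cells, for the epithelial and mesenchymal regions, beside 0.15 and 0.23 over all tested regions. Over all annotated promoter and other regions the medians were 0.32 and -0.06 in osimertinib DTPs, and 0.38 and 0.03 in combo cells. The 89 calls over both lists in osimertinib DTPs became 4 to 42 when any one DMSO or osimertinib DTP library was left out (4 without DMSO replicate 2) and 207 without combo replicate 3. The 119 calls in combo cells became 36 without DMSO replicate 2, 49 without DMSO replicate 3 and 192 without combo replicate 3. Calls over all regions moved the same way. Without DMSO replicate 2, 0.407% were higher and 0.294% lower in osimertinib DTPs, and 2.4% and 2.76% in combo cells. Without combo replicate 3 these shares were 14.2% and 12.7%, and 18.4% and 17.3%. The numbers for other fits are given above with the members.

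By gene, 3 epithelial genes had only rises and 6 only falls in osimertinib DTPs, and 15 had no call. In combo cells 4 had only rises, 8 only falls and 12 none. Of the mesenchymal genes, 10 had only rises, 6 only falls, 3 both and 10 none in osimertinib DTPs, and 8, 8, 4 and 9 in combo cells. A gene with more regions can more easily hold a call (TGFBI had 36 regions and CRB3 had 1). No share over all genes was computed, so these counts per gene cannot be read against a background. The fibroblast marker sums given above were higher in both treated groups, and PDGFRB and COL1A1 are on both the fibroblast and the mesenchymal list. Between combo cells and osimertinib DTPs, 0 regions of either list were called by edgeR or DESeq2, with 8 epithelial and 10 mesenchymal regions at an unadjusted p under 0.05.

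The largest falls among epithelial genes were at GRHL2, a transcription factor of epithelial identity, EPCAM, an adhesion molecule, and CLDN7, a tight junction claudin. A GRHL2 intron region held 137, 269 and 224 reads in DMSO, 18, 5 and 5 in osimertinib DTPs and 9, 8 and 1 in combo cells. Its log2 fold changes were -4.39 ± 0.70 (adjusted p = 0.0034) and -4.85 ± 0.72 (adjusted p = 0.0012). An EPCAM intron region fell from 96, 144 and 105 reads to 7, 2 and 16 in osimertinib DTPs (-3.68 ± 0.68, adjusted p = 0.0049), and a CLDN7 promoter region from 59, 93 and 85 to 10, 7 and 11 reads there (-2.93 ± 0.60, adjusted p = 0.0076) and to 4, 3 and 5 in combo cells (-3.83 ± 0.66, adjusted p = 0.0018). Rises among epithelial genes were at GRHL1, a paralogue of GRHL2 (4.40 ± 0.92 in osimertinib DTPs, 4.07 ± 0.91 in combo cells), at ELF3, an epithelial ETS factor (3.49 ± 0.85 and 3.13 ± 0.84), and at KRT18, a keratin (2.50 ± 0.56 and 3.09 ± 0.57).

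Among mesenchymal genes, MMP2, a matrix-degrading protease, held both a rise and a fall. So did SPARC and TNC in osimertinib DTPs, and SPARC, COL5A2 and LOXL2 in combo cells. A distal MMP2 region held 4, 2 and 2 reads in DMSO, 92, 54 and 94 in osimertinib DTPs and 129, 107 and 5 in combo cells (log2 fold change 4.98 ± 0.86 and 5.02 ± 0.86, adjusted p = 0.0038 and 0.0019). Its promoter region went from 89, 223 and 178 reads to 17, 6 and 21 and to 4, 11 and 1 (-3.39 ± 0.68 and -4.62 ± 0.74, adjusted p = 0.0070 and 0.0015). Other rises were at the matrix glycoprotein gene TNC (3.64 ± 0.75 in osimertinib DTPs and, at another region, 4.43 ± 0.70 in combo cells), at FSTL1 in osimertinib DTPs (3.35 ± 0.68) and at the receptor gene PDGFRB in combo cells (3.74 ± 0.70). Falls were at the matrix genes FBN1 (-3.0 ± 0.63 and -3.68 ± 0.68), TGFBI in osimertinib DTPs (-2.77 ± 0.61) and SPARC in combo cells (-5.01 ± 0.93). In combo cells SPARC had 2 regions called higher and 2 lower, with a median of 1.12 over its 12 regions. TNC had 5 higher and 2 lower in osimertinib DTPs.

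The genes whose promoter sums varied most like those of VIM and CDH1 were sought among 12895 genes by the root mean square difference of centred log2 CPM over the 9 libraries, which differ in depth and in the share of reads in promoters. Nearest to VIM were PARVA at 0.185, DCLK2 at 0.219 and DEPDC7 at 0.222. The PARVA sums were 28.8, 18.8 and 11.1 CPM in DMSO, 36.7, 47.5 and 22.5 in osimertinib DTPs and 48.4, 37.6 and 67.4 in combo cells. Nearest to CDH1 were OVOL1-AS1 at 0.132, SYNE4 at 0.135 and LAD1 at 0.154. The LAD1 sums were 50.6, 64.4 and 90.5 CPM in DMSO, 36.2, 47.5 and 54.4 in osimertinib DTPs and 15.6, 34.4 and 45.0 in combo cells.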

How the data were processed

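H3K27ac ChIP-seq counts of 9 libraries and 1 input were used. The authors deposited read counts per region without normalization, an annotated copy of that table for part of the regions, and 1 peak list per H3K27ac library, with fold enrichment over background (a ratio) and −log10 p and q values. The submitters' processing notes name BWA 0.7.17, MACS2 2.2.6, featureCounts 2.0.0, ChIPseeker 1.29.1 and hg38. Their settings, duplicate removal and the rule that chose the annotated regions are not given in the sources used here. The name of the peak list of osimertinib DTP replicate 3 gives the cell line as H1875 where its labels give H1975; over the annotated regions the −log10 p of each of the 9 lists correlated best with the counts of its own library. Regions carry the symbol of the nearest transcription start site and reads carry no strand, so a symbol does not show which gene a region acts on.

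The main test was edgeR 4.0.16, run in R 4.3.3 with limma 3.58.1: filterByExpr with a minimum count of 10, TMM scaling, robust dispersions and the quasi-likelihood test in 1 fit of all 9 libraries over all regions, with Benjamini-Hochberg adjustment over all of them. Groups came from the sample titles. Gene sums (reads summed by symbol over promoter classes up to 3 kb, and over the rest) were tested in a second such fit with its own scaling, so CPM of a sum and of a region differ. Levels are TMM-scaled CPM and n is 3 per group. The test was checked on simulated counts. Total counts of 6263443 to 10463351 per library set the precision, and a member region held at most 504 reads. Replicates were compared and no 2 libraries held the same counts within sampling noise. No count column of another series was present (0 columns).

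The members and gene lists were chosen with earlier results of these data known. Named for each gene were the promoter region and the other region with the highest mean level, the called regions with the largest rise and fall, and the sums; for the EMT lists, up to 3 genes per direction; and the 3 genes most like VIM and CDH1. Regions named in addition were chosen after their values were seen. As alternatives, a loess offset (span 0.3), plain library sizes in place of TMM, DESeq2 1.42.0, no filter, only the groups compared, a replicate block, and each library left out in turn were run, and quality weights (limma) and leaving out both promoter-rich libraries were added after the data were seen. Same-numbered libraries deviated together between DMSO and osimertinib DTPs (Pearson r 0.334, 0.355 and 0.324 over all regions), which met the minimum of 0.1 for pairing in every pair. Values for single genes and regions nevertheless come from fits without the replicate block, unless the block is named. The other comparisons did not meet it in every pair. Promoter sequences came from RefSeq (GRCh38.p14). The paper provided describes no ChIP-seq, and no value was taken from it.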

Additional observations from a re-analysis of the deposited data

How the results depend on the processing

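Depth and 3 libraries per group limit these results: member regions held at most 504 reads. Combo replicate 3 correlated least with its replicates, and more regions were called against DMSO without it. Counts of calls for the 66 regions, the 13 gene sums and the EMT list regions are given here, first for osimertinib DTP against DMSO, where the reported values were 6, 0 and 89. DESeq2 gave 15, 3 and 141; quality weights 31, 8 and 239; both promoter-rich libraries left out 22, 3 and 193; and only the libraries of both groups 22, 3 and 194. Library size without TMM gave 3 member regions, and a loess offset 1 gene sum. Leaving out 1 library gave 0 to 24, 0 to 3 and 4 to 207. For combo against osimertinib DTP (0, 0 and 0), quality weights gave 2 member and 18 list regions, both promoter-rich libraries left out 1 and 11, and leaving out 1 library 0 throughout. For combo against DMSO (17, 3 and 119), DESeq2 gave 27, 5 and 181; quality weights 45, 10 and 282; both promoter-rich libraries left out 35, 7 and 238; only the libraries of both groups 1 gene sum; and leaving out 1 library 2 to 31, 0 to 5 and 36 to 192. The other 97 alternatives of these counts stayed within 1.5 times the reported value. The cause of these shifts was not tested, except that DESeq2 and fits of fewer libraries estimate the spread otherwise by construction.

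With the replicate number as a block, 5 member regions were called for osimertinib DTP against DMSO (1 higher, 4 lower), 0 for combo against osimertinib DTP and 16 for combo against DMSO (3 higher, 13 lower), and 1 gene sum (SNAI1 outside promoters) in the last. Same-numbered libraries of combo and DMSO correlated at -0.018, 0.553 and 0.362, and those of combo and osimertinib DTP at 0.243, 0.026 and -0.24. In neither comparison did every pair pass the minimum, although replicates 2 and 3 of combo and DMSO did. Whether these libraries share more than a number stays undecided.

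Without TMM the median log2 fold change over all regions in combo against DMSO moved from 0.23 to -0.02, with 9564 regions higher and 15152 lower in place of 14286 and 14232, and the members were 3 higher and 14 lower. With the loess offset it was 0.36, with 18454 higher and 12898 lower, and the members were 9 higher and 13 lower.

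For single named values 1502 alternatives kept direction and call, 129 passed the threshold, 139 lost it and 30 changed sign, all of values that had not passed. The CDH1 start-site region in osimertinib DTPs became -0.10 without TMM, -0.15 with loess, -0.14 with the block, -0.75 with quality weights, -0.89 without both promoter-rich libraries, and -0.85 to 0.64 with 1 library left out; in combo that range was -1.21 to 0.15. The SNAI1 start-site region became -0.045 and -0.13 with quality weights and -0.23 and -0.16 without both promoter-rich libraries, in osimertinib DTPs and combo, with leave-one-out ranges of -0.20 to 0.66 and -0.24 to 0.69. With 1 library left out, the SNAI2 region at 21977 bp ran from -0.050 to 0.55 in combo and the TWIST2 region from -0.12 to 1.30 in osimertinib DTPs (-0.15 without both promoter-rich libraries). The CDH2 sum ran from -0.39 to 0.14 and from -0.15 to 0.87 (0.0013 with quality weights and 0.12 without both promoter-rich libraries in osimertinib DTPs), and the FN1 sum from -0.22 to 0.24 (-0.17 with quality weights) and from -0.34 to 0.082. In combo the SNAI1 promoter sum ran from -0.79 to 0.067 and the TWIST1 sum from -0.27 to 0.66.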

Other observations

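Regions inside the 10 genes that carry no annotation row were examined after the data were seen. The RefSeq bounds of the genes held 99 counted regions, of which 49 were without annotation and 43 were tested. Of these, 1 was higher and 2 were lower in osimertinib DTPs against DMSO, beside 5.58% and 5.13% of all tested regions, and 3 were higher and 10 lower in combo cells against DMSO, beside 9.05% and 9.01%. CDH1 had 16 of the tested ones, with 1 higher and 7 lower in combo cells. The CDH1 region chr16:68759631-68760132 held 34, 28 and 47 reads in DMSO, 16, 2 and 10 in osimertinib DTPs and 3, 2 and 0 in combo cells. Its fall in combo cells (log2 fold change -4.07 ± 0.88, adjusted p = 0.0057 by edgeR) was called in each fit with 1 library left out.

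Near the end of CDH1, chr16:68822833-68823334 rose beside the annotated region that also rose. It held 4, 5 and 10 reads in DMSO, 46, 27 and 31 in osimertinib DTPs and 18, 35 and 18 in combo cells, with log2 fold changes of 2.56 ± 0.65 and 2.29 ± 0.65 (adjusted p = 0.019 and 0.022). Combo replicate 3 also lay above every DMSO library. With 1 library left out, 6 of 9 fits lost the call in osimertinib DTPs and 4 of 9 lost that in combo cells.

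In combo cells 2 unannotated regions within the body of ZEB2 rose. At chr2:144426678-144427179 the counts were 10, 8 and 7 reads in DMSO, 17, 19 and 58 in osimertinib DTPs and 92, 98 and 2 in combo cells. The log2 fold change in combo cells was 3.10 ± 0.85 (adjusted p = 0.019, and 4.0e-05 without combo replicate 3), and a neighbour at chr2:144427342-144427843 gave 2.72 ± 0.70 (adjusted p = 0.014). Each call was lost in 3 of the 9 fits with 1 library left out, and the 2 reads of combo replicate 3 at the first region were fewer than in any DMSO library. In CDH2, by contrast, chr18:27996387-27996888 fell from 25, 52 and 37 reads to 11, 2 and 6 and to 4, 2 and 1, with log2 fold changes of -2.49 ± 0.71 and -3.66 ± 0.79 (adjusted p = 0.033 and 0.0056), calls lost in 6 and 1 of those 9 fits.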
